A study of Schizosaccharomyces pombe with 6 samples.

Results

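Glycolysis is the cytosolic pathway that turns glucose into pyruvate, and in fission yeast (*Schizosaccharomyces pombe*) growing on glucose it feeds fermentation to ethanol. Its enzymes are among the most abundant proteins of the cell. One step, the oxidation of glyceraldehyde-3-phosphate with reduction of NAD, is catalyzed by glyceraldehyde-3-phosphate dehydrogenase (GAPDH), and fission yeast has a pair of genes for it, *tdh1* and *gpd3*. The transcripts of 10 glycolytic genes, *hxk1*, *hxk2*, *fba1*, *tpi1*, *tdh1*, *gpd3*, *pgk1*, *gpm1*, *eno101*, and *pyk1*, are described here in cells with and without monoubiquitination of histone H2B, a mark placed on a single lysine near the C terminus of H2B and known from work on transcription elongation and on histone H3 methylation. The genes were taken by their symbols from a table of 5184 genes, and all 10 passed the filter on low counts that left 4969 genes for testing. The list was chosen by its values in these same libraries, that is, with the count and FPKM differences between the genotypes already known, so the members' values in that comparison are a description and carry no test.

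RNA was sequenced from 3 *htb1-K119R* libraries and 3 WT libraries. In *htb1-K119R* (h- ura4-D18 htb1-K119R::kanMX6), the codon for Lys119 of the only H2B gene is changed to one for Arg, so this lysine cannot be ubiquitinated. The WT strain (h+ ade6-M216 leu1-32 ura4-D18) shares the *ura4* allele. It lacks the kanMX6 cassette and differs also in mating type and in the *ade6* and *leu1* alleles. What these differences contribute to any value below cannot be told apart from the histone change. The methods call the libraries of each strain independent biological repeats.

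The libraries held between 15987167 and 20701391 counts. Replicates differed by more than counting error (chi-square per gene between 8.57 and 83.4). WT replicate 3 stood apart from the other WT libraries, with a mean absolute log2 difference of 0.377 and 0.315 from WT replicates 1 and 2, against 0.182 between those and 0.146 to 0.213 among the *htb1-K119R* libraries. Values are given either as the deposited FPKM (fragments per kilobase of transcript, scaled to the library's total) or as CPM (counts scaled to a common library size) adjusted by TMM, a normalization that evens out the bulk of genes. The deposited FPKM of every member equalled its count divided by the library total and by 1 fixed length, as it did for 3493 of 3493 genes with at least 100 counts in every library (within 1% over the 6 libraries). The FPKM thus carry no correction for composition, and the 2 scalings differ: the median log2 fold change of all genes tested was -0.01 with TMM and 0.15 with library totals. A gene was called when edgeR's quasi-likelihood test gave an adjusted P below 0.05 and the change was more than 2-fold. By that rule 234 genes (4.71%) were called higher and 181 (3.64%) lower in *htb1-K119R*, and with library totals 298 were called higher and 108 lower. For the *htb1* transcript itself the log2 fold change came to -0.26 (SE 0.171, adjusted P = 0.26 by edgeR with Benjamini-Hochberg correction), and it was not called.

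The 2 GAPDH genes both lie on chromosome II, on the forward strand, and are far apart. In the RefSeq annotation of ASM294v3, *gpd3* (SPBC354.12) spans chrII:578117-580056 with 2 exons of 65 and 1332 bases, and its intron of 543 bases precedes the coding sequence. *tdh1* (SPBC32F12.11) spans chrII:2807595-2809051 in 1 exon. Their coding sequences of 1008 and 1011 bases (stop codon included) are 93.3% identical over 1008 aligned bases, and the encoded proteins are 93.7% identical, with 314 of 335 residues shared. In a search of the genome with the coding sequences, *gpd3* and *tdh1* found each other and no further copy, and the other 8 members found no copy of themselves. Because reads could in places belong to either gene, the stretches that set the pair apart and those that do not are shown. Within the coding sequences, the 90 bases with the most differences (coding bases 43 to 132, counted from the A of the start codon, forward strand, chrII:578773-578862 in *gpd3* and chrII:2807679-2807768 in *tdh1*) differ at 18 positions, which are in capitals:
gpd3: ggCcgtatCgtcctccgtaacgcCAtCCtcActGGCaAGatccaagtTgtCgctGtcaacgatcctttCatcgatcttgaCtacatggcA
tdh1: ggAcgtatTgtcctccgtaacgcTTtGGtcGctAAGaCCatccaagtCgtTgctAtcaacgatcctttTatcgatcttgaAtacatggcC

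The longest run without a difference is 203 bases long, at coding bases 577 to 779 of both genes (chrII:579307-579509 in *gpd3*, chrII:2808213-2808415 in *tdh1*). A fragment that falls wholly inside it carries no base that tells the genes apart:
gpd3 and tdh1: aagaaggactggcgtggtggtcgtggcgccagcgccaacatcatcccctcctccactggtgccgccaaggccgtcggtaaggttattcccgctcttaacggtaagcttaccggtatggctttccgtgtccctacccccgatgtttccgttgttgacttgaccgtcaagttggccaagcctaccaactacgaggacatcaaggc

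Of the 959 windows of 50 bases in the *gpd3* coding sequence, 234 (24.4%) also occur in *tdh1*. For windows of 100 bases the share was 11.9%, and for windows of 150 bases it was 6.29%. The read length, and how reads that fit both genes were assigned, are not given in the sources used here, and the part of such reads in the counts was not tested. The pairs *hxk1* and *hxk2*, and *eno101* and the minor enolase gene *eno102*, share no window of 50 bases, with longest shared runs of 17 and 18 bases.

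The 250 bases before the annotated transcript starts are shown for the pair because both genes encode GAPDH. Forward strand, *gpd3* at chrII:577867-578116 and *tdh1* at chrII:2807345-2807594, with the letters TATAAA in capitals:
gpd3: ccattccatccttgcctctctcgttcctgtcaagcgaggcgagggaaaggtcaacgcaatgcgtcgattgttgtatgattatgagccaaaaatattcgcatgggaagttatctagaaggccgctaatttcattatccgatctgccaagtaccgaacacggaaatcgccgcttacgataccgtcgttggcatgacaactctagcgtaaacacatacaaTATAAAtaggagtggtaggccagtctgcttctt
tdh1: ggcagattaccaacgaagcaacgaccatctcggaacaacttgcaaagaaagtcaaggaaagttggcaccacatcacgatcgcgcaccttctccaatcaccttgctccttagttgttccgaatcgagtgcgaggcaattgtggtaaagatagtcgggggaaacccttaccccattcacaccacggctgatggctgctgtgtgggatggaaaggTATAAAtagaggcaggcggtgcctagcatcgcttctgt

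TATAAA, the letters of a TATA box, begins 33 bases before the *gpd3* start and 38 bases before the *tdh1* start. On either strand it was found before 6 of the 10 members (*hxk1*, *tdh1*, *gpd3*, *pgk1*, *gpm1*, and *pyk1*) and in 44.4% of the 5104 windows of the same length before annotated genes. TGACGT, the core bound by the stress factor Atf1, stood before *fba1* and *pgk1* and in 5.53% of all windows. CCCCTC, a letter match for the glucose-regulated factor Rst2, stood before none of the 10 members and in 1.7% of all windows, and CAGTCACA, the HomolD box, stood before *tpi1* and in 2.63%. Before the members, matches of different motifs did not overlap, and a match describes the letters only.

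The *gpd3* transcript, of the less expressed GAPDH gene in WT, was the member with the greatest difference between the genotypes. It was counted 338965, 346368, and 370219 times in *htb1-K119R* replicates 1, 2, and 3, against 33639, 36139, and 42036 times in WT replicates 1, 2, and 3. Its level was 12391, 13211, and 13931 FPKM in *htb1-K119R*, against 1450, 1542, and 1399 FPKM in WT. The lowest *htb1-K119R* library lay far above the highest WT library, and the spread within each genotype was small. The means were 13178 ± 771 FPKM in *htb1-K119R* and 1464 ± 72.5 FPKM in WT (SD, n = 3 each), a 9.0-fold higher level in *htb1-K119R*. With TMM scaling the means were 18024 ± 1811 CPM in *htb1-K119R* and 2295 ± 484 CPM in WT (SD, n = 3 each), and the log2 fold change was 2.97 (SE 0.268). It was 2.81 without WT replicate 3, and lay between 2.81 and 3.17 over the 16 fits run. The transcript is annotated opposite a noncoding RNA, SPNCRNA.4780, and whether counting used the strand is not stated. Noncoding RNAs also lie opposite *hxk1*, *hxk2*, *fba1*, *pgk1*, *gpm1*, and *pyk1*, and *gpm1* overlaps *mug106* on its own strand. In RNA from whole cultures, more of the *gpd3* transcript per cell and more cells that express it cannot be told apart.

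*tdh1*, the main GAPDH gene in WT, showed values in the other direction and was not called. Its level was 15106, 17005, and 17044 FPKM in *htb1-K119R*, against 20209, 20389, and 17670 FPKM in WT. On this scale the *htb1-K119R* libraries all lay below the WT libraries, with WT replicate 3 the closest. With TMM scaling the libraries overlapped, at 20321, 25610, and 24474 CPM in *htb1-K119R* and 37231, 35879, and 22929 CPM in WT. The log2 fold change was -0.45 (SE 0.306). It was -0.64 without WT replicate 3 and -0.25 with library totals.

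The balance between the 2 GAPDH transcripts does not depend on how libraries are scaled, since both are read from the same library. The ratio of *gpd3* to *tdh1* FPKM was 0.820, 0.777, and 0.817 in *htb1-K119R*, against 0.0718, 0.0757, and 0.0792 in WT. The genotypes were well separated, and within each the ratio varied little, WT replicate 3 included. On the log2 scale the ratio was -0.31 ± 0.044 in *htb1-K119R* and -3.73 ± 0.071 in WT (SD, n = 3 each), a difference of 3.41 that lay between 3.38 and 3.45 with any single library removed. *gpd3* thus made up 45.1%, 43.7%, and 45% of GAPDH FPKM in *htb1-K119R*, against 6.70%, 7.03%, and 7.34% in WT. The ratio rests on the assignment of reads in the shared stretches described above.

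**Figure D1:**
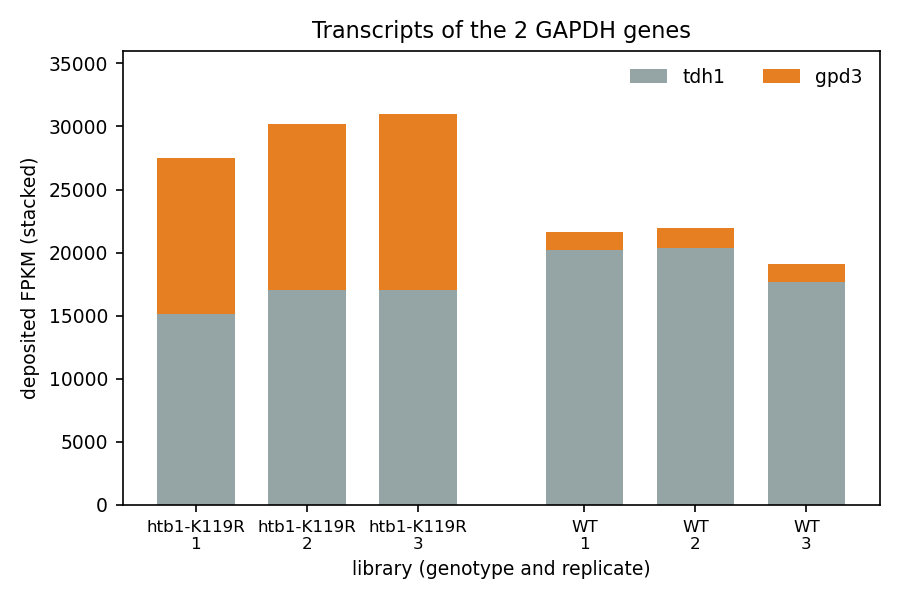
Deposited FPKM of *tdh1* (grey) and *gpd3* (orange), stacked, in each library (x axis, *htb1-K119R* replicates left, WT replicates right, linear y axis from 0). The *gpd3* part is between 43.7% and 45.1% of the bar in the *htb1-K119R* libraries and between 6.70% and 7.34% in the WT libraries, while the *tdh1* part is somewhat shorter in *htb1-K119R*.

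The sum of both GAPDH transcripts was 27496, 30216, and 30975 FPKM in *htb1-K119R*, against 21659, 21931, and 19070 FPKM in WT. On this scale no library of one genotype reached those of the other, and the mean sum was 1.42-fold higher in *htb1-K119R*. With TMM scaling the sums overlapped, at 36255, 44629, and 43594 CPM in *htb1-K119R* and 39784, 38473, and 24665 CPM in WT, with a mean 1.21-fold higher in *htb1-K119R*. Set against *eno101*, the enolase gene further down the pathway, the GAPDH sum was higher by 0.76 ± 0.015 on the log2 scale in *htb1-K119R* and by 0.17 ± 0.028 in WT (SD, n = 3 each). *gpd3* alone took 1.80%, 1.92%, and 2.02% of all counts in *htb1-K119R*, against 0.210%, 0.224%, and 0.203% in WT. By count it ranked 4, 5, and 3 among all genes in the *htb1-K119R* libraries, against 94, 88, and 89 in the WT libraries. *tdh1* ranked 2 in each *htb1-K119R* library and 1 in each WT library.

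The first step of the pathway, the phosphorylation of glucose, is carried out by the hexokinases Hxk1 and Hxk2, whose transcripts had the lowest mean FPKM of the 10 in both genotypes. *hxk1* (SPAC24H6.04, chrI:482607-485184, reverse strand) was at 395, 355, and 398 FPKM in *htb1-K119R*, against 258, 245, and 272 FPKM in WT. All *htb1-K119R* libraries were above all WT libraries, also with TMM scaling, where the log2 fold change was 0.38 (SE 0.153). *hxk2* (SPAC4F8.07c, chrI:2665623-2667395, forward strand) was at 788, 802, and 783 FPKM in *htb1-K119R*, against 874, 894, and 851 FPKM in WT. These FPKM did not overlap, but the TMM-scaled values did, and the log2 fold change was -0.34 (SE 0.197). *hxk1* made up 33.4%, 30.7%, and 33.7% of hexokinase FPKM in *htb1-K119R*, against 22.8%, 21.5%, and 24.2% in WT. The length behind the *hxk2* FPKM is 3051 bases, 1.72 times its RefSeq spliced length of 1773 bases, so the *hxk2* level and these shares depend on the transcript model, whereas their direction between the genotypes does not.

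The next members split the sugar and balance its products. *fba1* (SPBC19C2.07) encodes the aldolase that cleaves fructose-1,6-bisphosphate. It was at 13452, 14428, and 14668 FPKM in *htb1-K119R*, against 16799, 17531, and 16192 FPKM in WT. The FPKM of *fba1* did not overlap between the genotypes, the TMM-scaled values did, and the log2 fold change was -0.44 (SE 0.277). *tpi1* (SPCC24B10.21) encodes triose-phosphate isomerase, which interconverts the products of the aldolase. Its FPKM overlapped, at 11828 to 13901 in *htb1-K119R* and 11595 to 13987 in WT, and its log2 fold change was -0.22 (SE 0.275).

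After the GAPDH step, *pgk1* (SPBC14F5.04c), for phosphoglycerate kinase, the enzyme that makes the first ATP of the pathway's second part, was the member with the lowest log2 fold change. It was at 7360, 7805, and 7831 FPKM in *htb1-K119R*, against 9994, 10706, and 10482 FPKM in WT. The *htb1-K119R* libraries lay below the WT libraries on both scales, and the log2 fold change was -0.63 (SE 0.258), or -0.44 with library totals. It did not reach the 2-fold limit of the call in any of the 16 fits. *gpm1* (SPAC26F1.06), for phosphoglycerate mutase, had the highest mean FPKM of all genes in both genotypes, at 22394 to 28502 in *htb1-K119R* and 22411 to 27529 in WT, and a log2 fold change of -0.25 (SE 0.306). *eno101* (SPBC1815.01), for enolase, was at 16314 to 18031 FPKM in *htb1-K119R* and 17322 to 19212 FPKM in WT, with a log2 fold change of -0.29 (SE 0.299). *pyk1* (SPAC4H3.10c), for pyruvate kinase, was at 7992 to 8551 FPKM in *htb1-K119R* and 7680 to 8487 FPKM in WT. Its log2 fold change was -0.15 (SE 0.267) with TMM and 0.05 with library totals, the only member whose sign turned. The libraries of *gpm1*, *eno101*, and *pyk1* overlapped on both scales.

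**Figure D2:**
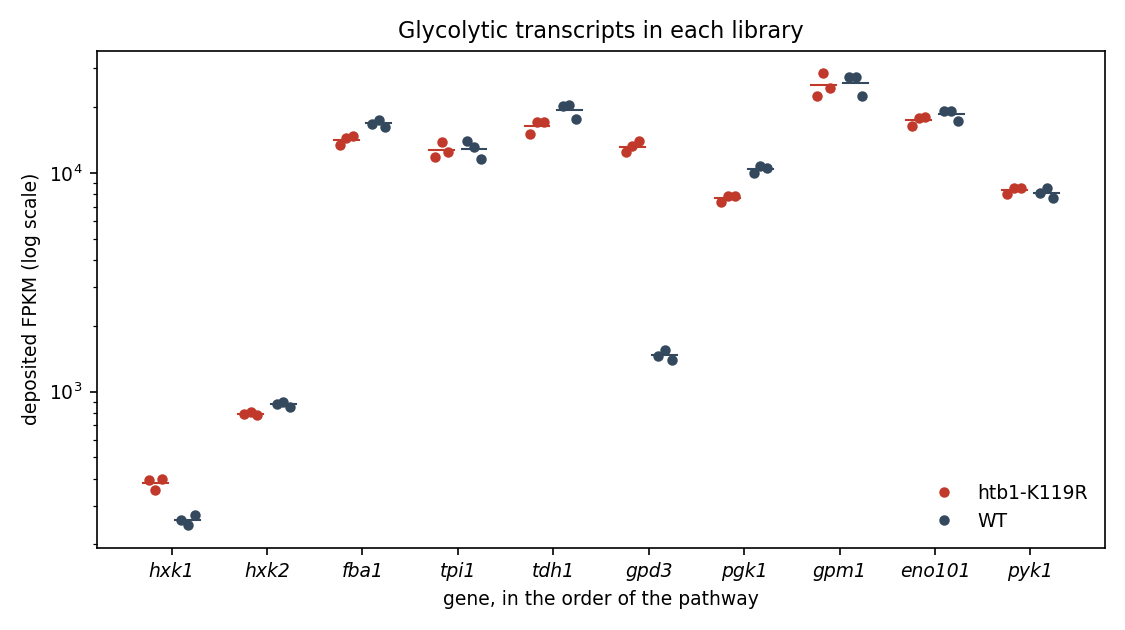
Deposited FPKM (log axis) of the 10 glycolytic genes in the order of the pathway, with *htb1-K119R* libraries (red, left) and WT libraries (dark blue, right) as points and genotype means as lines. The genotypes are farthest apart at *gpd3* (means of 13178 FPKM in *htb1-K119R* and 1464 FPKM in WT), and *hxk1* is the other gene whose *htb1-K119R* points all lie higher.

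Of the 10 members, 1 (*gpd3*) was called higher and 0 were called lower in *htb1-K119R*, beside backgrounds of 4.71% and 3.64% of all genes tested. Since the members were listed with this contrast in view, nothing is read from that count. By FPKM, the libraries of 2 members did not overlap and were higher in *htb1-K119R* (26.5% of all genes tested), and those of 4 members (*hxk2*, *fba1*, *tdh1*, and *pgk1*) were lower (15.1%). By TMM-scaled CPM the counts were 2 higher (25% of all genes) and 1 lower (*pgk1*, 23.9%). The median log2 fold change of the 10 members was -0.27 with TMM, where that of all genes was -0.01, and -0.07 with library totals, where that of all genes was 0.15. Over the 16 fits, 7 members were negative and 2 (*hxk1* and *gpd3*) positive in every fit. The fits draw on the same 6 libraries, so their agreement is not replication, and the share over all genes was not computed. Some of the negative values came close to 0 (up to -0.01 for *tpi1* and -0.04 for *gpm1*). Relative to the other members, as given below, *tpi1* and *gpm1* were slightly positive.

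The level of WT replicate 3 weighed on the TMM-scaled values of the abundant members. Its TMM factor was 1.17, against 0.824 and 0.863 in WT replicates 1 and 2, and it gave the lowest WT CPM for all 10 members (*gpm1* 14962, against 26094 and 24847). Without it the log2 fold changes of *fba1*, *tpi1*, *gpm1*, and *eno101* were -0.61, -0.42, -0.46, and -0.47, and the median over the 10 members was -0.47. Those of *hxk2*, *pgk1*, and *pyk1* were then -0.50, -0.77, and -0.32, and that of *hxk1* was 0.27.

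To set the genes against one another without any scaling between libraries, each member was divided by the geometric mean of the other members except *gpd3* within its library. On this log2 scale *gpd3* was at 0.99 ± 0.052 in *htb1-K119R* and -2.25 ± 0.040 in WT (SD, n = 3 each), a difference of 3.24. *hxk1* differed by 0.71, and its libraries did not overlap. *pyk1* was slightly higher in all *htb1-K119R* libraries (0.13), and *pgk1* (-0.42), *fba1* (-0.20), and *tdh1* (-0.20) were lower in all of them. Each of these values depends on the other members, so lower values of some raise those of others, and the FPKM of *pyk1* itself overlapped. The share of all genes without overlap was not computed on this scale, so nothing is read from the number of such members. The differences of *hxk2* (-0.08), *tpi1* (0.06), *gpm1* (0.03), and *eno101* (-0.03) lay within the overlap of the libraries.

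**Figure D3:**
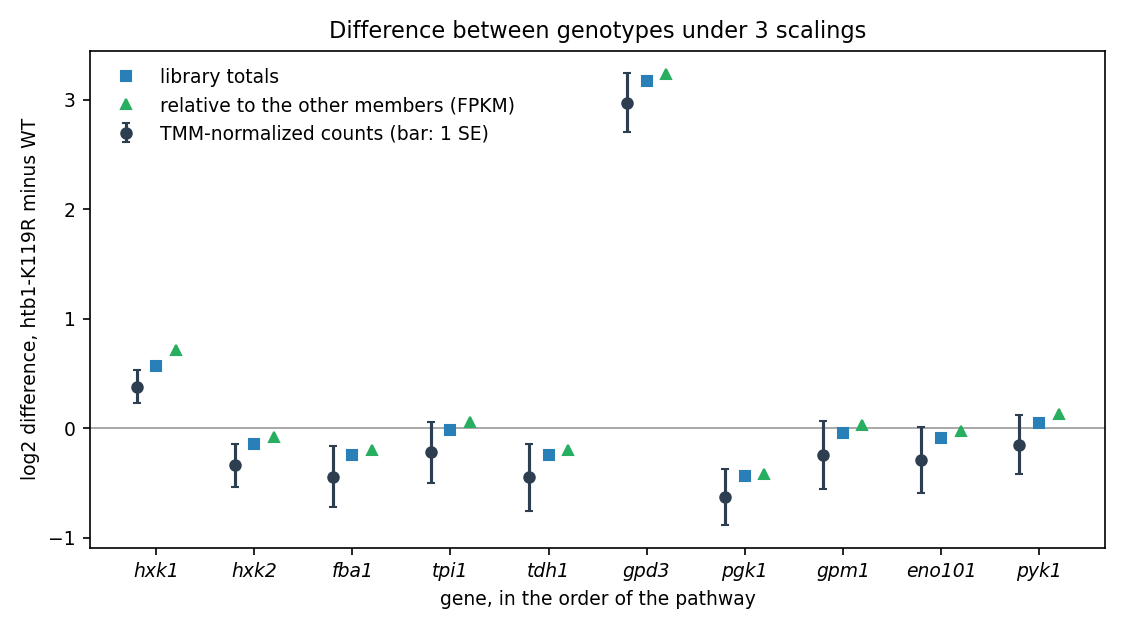
Log2 difference (y axis, *htb1-K119R* minus WT) of the 10 glycolytic genes with TMM-normalized counts (circles, bars of 1 SE from edgeR's fit), library totals (squares), and relative to the other members (triangles). *gpd3* lies between 2.97 and 3.24 on all 3 scales, *hxk1* between 0.38 and 0.71, and *pgk1* between -0.63 and -0.42, while *tpi1*, *gpm1*, and *pyk1* lie on both sides of 0.

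In the order of the levels, the place of *gpd3* differed most between the genotypes. In *htb1-K119R* the mean FPKM ran from *gpm1* through *eno101*, *tdh1*, *fba1*, *gpd3*, *tpi1*, *pyk1*, and *pgk1* to *hxk2* and *hxk1*. The libraries of *eno101* and *tdh1*, of *fba1* and *gpd3*, and of *gpd3* and *tpi1* overlapped, so these neighbours were not apart beyond their spread. In WT the order was *gpm1*, *tdh1*, *eno101*, *fba1*, *tpi1*, *pgk1*, *pyk1*, *gpd3*, *hxk2*, and *hxk1*, with overlap between *tdh1* and *eno101* and between *eno101* and *fba1*. Among all genes, the mean FPKM of *gpd3* ranked 5 in *htb1-K119R* and 146 in WT. With the RefSeq length in place of the length behind the FPKM, *gpd3* (1521 ± 75.3) and *hxk2* (1502 ± 36.8) were no longer apart in WT, while in *htb1-K119R* they were at 13687 ± 800 and 1361 ± 17.1 (counts per kilobase on the FPKM scale, SD, n = 3 each).

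As a share of the library, the 10 members together took 14.2%, 15.9%, and 15.6% of all counts in *htb1-K119R*, against 15.4%, 15.6%, and 14.0% in WT. The ranges nearly coincide. Without *gpd3* the share was 12.5%, 13.9%, and 13.6% in *htb1-K119R*, against 15.2%, 15.4%, and 13.8% in WT, and these ranges overlap too.

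No other member had a pattern like that of *gpd3* over the 6 libraries. Likeness was measured by the Euclidean distance of log2(CPM + 0.5) deviations from each gene's mean. The nearest member was *hxk1*, at place 874 of 4968 genes, and *tdh1* stood at place 3880. The 5 nearest genes were SPCC777.04, SPAC977.18, *orc4*, SPAC9G1.14, and *adh8*, chosen for their likeness in this contrast and so given without a test. SPCC777.04 (a predicted amino acid transporter) had 59, 65, and 67 counts in *htb1-K119R* and 0 in each WT library. Its fitted log2 fold change was 8.91, against 2.97 for *gpd3*, so its first place rests on the 0.5 added to the CPM. SPAC977.18 was at 29.0, 35.7, and 33.1 CPM in *htb1-K119R*, against 4.02, 5.17, and 3.96 CPM in WT. *orc4*, for a subunit of the origin recognition complex, was at 86.9, 98.5, and 87.5 CPM in *htb1-K119R*, against 11.6, 11.6, and 11.9 CPM in WT. SPAC9G1.14, annotated as dubious, averaged 7.33 CPM in *htb1-K119R* and 0.679 CPM in WT, where the added 0.5 also weighs. *adh8*, a predicted alcohol dehydrogenase, was at 113, 114, and 116 CPM in *htb1-K119R*, against 18.1, 20.3, and 18.3 CPM in WT. All 5 were higher in every *htb1-K119R* library than in any WT library, as were 25% of all genes tested by TMM-scaled CPM. For the 5 this follows from how they were chosen.

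The protein-coding genes beside the pair were compared to see whether the difference extended along the chromosome, and 0 of the 8 neighbours were called (8.35% of all genes tested were called in either direction). Beside *gpd3*, *def1*, which ends 3796 bases upstream, was at 510, 415, and 510 CPM in *htb1-K119R*, against 291, 303, and 291 CPM in WT. Its log2 fold change of 0.70 (SE 0.126) passed the adjusted P but not the 2-fold limit (adjusted P = 0.00189 by edgeR with Benjamini-Hochberg correction). *rga6*, which begins 1088 bases downstream, likewise had a log2 fold change of 0.39 (SE 0.127, adjusted P = 0.0333 by edgeR with Benjamini-Hochberg correction). It passed in 7 of the 16 fits, and not with library totals, in the limma fits on FPKM, or without *htb1-K119R* replicate 1 or 3 or WT replicate 1 or 2. The 3′ end of *rga6* overlaps *vac8* on the other strand, and *tfb5* beside *tdh1* likewise overlaps SPBC32F12.12c, so reads there could belong to either gene. Of the genes farther out, *vac8* (0.20, SE 0.157) and SPBC354.09c (0.12, SE 0.195) did not pass. Beside *tdh1*, *tfb5*, 822 bases downstream, had a log2 fold change of -0.66 (SE 0.179, adjusted P = 0.0152 by edgeR with Benjamini-Hochberg correction). It passed in 9 of the 16 fits, and not with library totals, in the limma fits, or without *htb1-K119R* replicate 1 or 3. *rum1* (0.04, SE 0.116), SPBC32F12.10 (0.21, SE 0.121), and SPBC32F12.12c (0.17, SE 0.138) did not pass. With library totals, where all values shift upward, *vac8* (0.40), SPBC32F12.10 (0.38), and SPBC32F12.12c (0.37) passed the adjusted P, and *def1* passed in all 16 fits.

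The wider carbohydrate network was read from a list of 41 genes around glycolysis, of which 39 were found by symbol and tested (the symbols *gnd1* and *tkt1* were not matched). The list was chosen with earlier results of these data known. Its counts, shares, and adjusted P values here and in the next paragraphs are therefore a description and no independent test of the list. In *htb1-K119R*, 1 of the 39 (2.56%) was called higher and 4 (10.3%) were called lower, beside 4.71% and 3.64% of all genes tested. By the adjusted P alone, 8 were higher and 7 lower, against 18.6% and 19.3% of all genes tested, and 24 did not pass. Of these 15 genes, 10 also passed with library totals, and 8 passed in every fit. With library totals, where values shift upward, *gld1*, *dak1*, *tal1*, and *pda1*, which did not pass with TMM, passed and were higher. The median log2 fold change of the 39 was -0.06. With library totals 2 were called higher, *dak2* being the other.

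The upper glycolytic steps that the 10 members leave out did not pass the test with all 6 libraries. *pgi1*, for glucose-6-phosphate isomerase, averaged 5283 ± 409 CPM in *htb1-K119R* and 5767 ± 1022 CPM in WT (SD, n = 3 each), with a log2 fold change of -0.13 (SE 0.215, adjusted P = 0.67 by edgeR with Benjamini-Hochberg correction). *pfk1*, for 6-phosphofructokinase, averaged 3373 ± 225 CPM in *htb1-K119R* and 3790 ± 684 CPM in WT (SD, n = 3 each), with a log2 fold change of -0.17 (SE 0.201, adjusted P = 0.539 by edgeR with Benjamini-Hochberg correction). Both turned positive with library totals (0.06 and 0.03). Without WT replicate 3, *pfk1* was at -0.31 and passed (adjusted P = 0.0199 by edgeR with Benjamini-Hochberg correction), and *pgi1*, at -0.26, did not. *eno102*, the minor enolase gene, was at 19.2, 19.9, and 20.1 CPM in *htb1-K119R*, against 29.3, 32.3, and 32.2 CPM in WT. It passed the adjusted P but was not called, with a log2 fold change of -0.67 (SE 0.107, adjusted P = 0.00091 by edgeR with Benjamini-Hochberg correction). With library totals and in the limma fits on FPKM it did not pass.

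In fermentation, pyruvate decarboxylases and alcohol dehydrogenases turn pyruvate into ethanol. Of its 7 listed genes, 1 was called higher and 3 were called lower, beside 4.71% and 3.64% of all genes tested. *pdc101* and *adh1*, the abundant genes of this branch, did not pass, except *adh1* in 1 of the 16 fits. *pdc201* was at 76.1, 88.5, and 79.7 CPM in *htb1-K119R*, against 42.4, 39.1, and 27.01 CPM in WT, and its log2 fold change was 1.18 (SE 0.157, adjusted P = 0.000279 by edgeR with Benjamini-Hochberg correction). Without WT replicate 3 it was 0.996 and just missed the 2-fold limit, which left none of the list called higher. *pdc202* was at 5.88, 5.93, and 4.80 CPM in *htb1-K119R*, against 23.5, 22.4, and 18.1 CPM in WT, with a log2 fold change of -1.94 (SE 0.159, adjusted P = 1.3e-05 by edgeR with Benjamini-Hochberg correction). It was called in all 16 fits. *pdc102*, with 34, 44, and 33 counts in *htb1-K119R* and 74, 78, and 110 counts in WT, had a log2 fold change of -1.46 (SE 0.235, adjusted P = 0.000909 by edgeR with Benjamini-Hochberg correction). It was called in 14 of the 16 fits. *adh4*, for an alcohol dehydrogenase, was at 88.7, 85.6, and 94.7 CPM in *htb1-K119R*, against 236, 209, and 170 CPM in WT. Its log2 fold change was -1.19 (SE 0.128, adjusted P = 7.5e-05 by edgeR with Benjamini-Hochberg correction), and it was called in 13 of the 16 fits.

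The other branches of the list held 1 called gene. *rki1*, for ribose-5-phosphate isomerase of the pentose phosphate pathway, was at 36.7, 35.3, and 32.5 CPM in *htb1-K119R*, against 60.1, 71.0, and 87.0 CPM in WT. Its log2 fold change of -1.06 (SE 0.137, adjusted P = 0.000226 by edgeR with Benjamini-Hochberg correction) was close to the limit, and it was called in 10 of the 16 fits. Without WT replicate 3 it was -0.91 and not called. By the adjusted P alone, 1 of the 6 glycerol genes was higher, beside 18.6% of all genes tested. This was *dak2*, a dihydroxyacetone kinase gene (log2 fold change 0.84). With library totals *gld1* (0.45) and *dak1* (0.48) passed too. The glycerol-3-phosphate dehydrogenase genes *gpd1* and *gpd2*, which share a name with *gpd3* but not its reaction, did not pass, except *gpd1* in 1 of the 16 fits. Of the 8 glucose-signalling genes, 5 did not pass and 3 were higher by the adjusted P, beside 18.6% of all genes tested. The 3 were *cyr1* for adenylate cyclase (0.57), *cgs1* for the regulatory subunit of protein kinase A (0.60), and *rst2* for a transcription factor (0.37). They passed in 9, 16, and 6 of the 16 fits. *fbp1* of gluconeogenesis (0.37), *tpp1* of trehalose synthesis (0.55), and the invertase gene *inv1* (0.64) were also higher, and *atd1* for aldehyde dehydrogenase (-0.65) and *dld1* for a subunit of pyruvate dehydrogenase (-0.50) were lower, all on the log2 scale and none of them by 2-fold. With library totals *fbp1*, *inv1*, *cyr1*, and *rst2* did not pass, and when single libraries were left out *fbp1*, *cyr1*, *rst2*, *atd1*, and *dld1* each missed the adjusted P in at least 1 case.

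**Figure D4:**
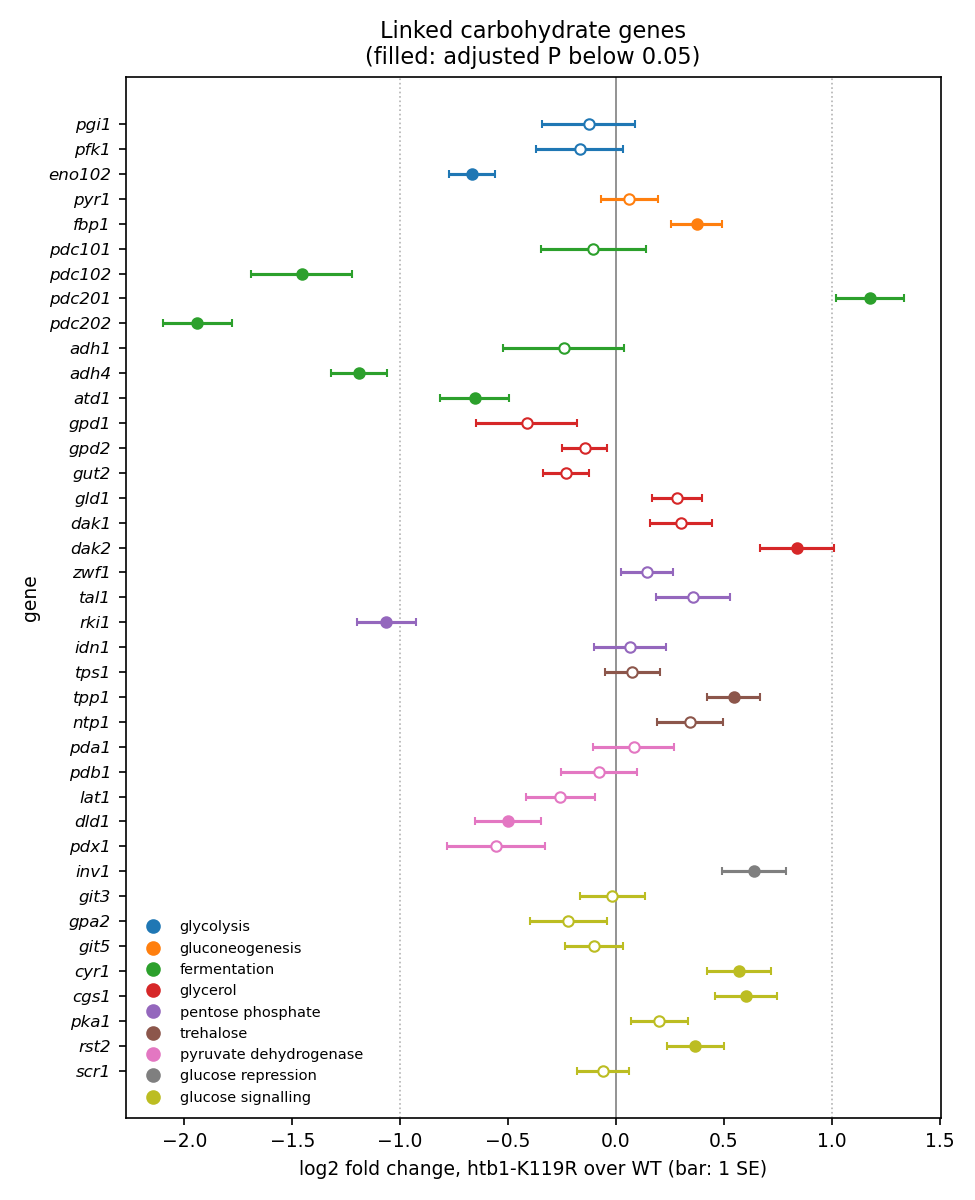
Log2 fold change (x axis, *htb1-K119R* over WT, bars of 1 SE from edgeR's fit) of the 39 linked carbohydrate genes (rows, colored by branch), filled where the adjusted P is below 0.05, with dotted lines at a 2-fold change. *pdc201* is the gene past the right line (1.18), and *pdc202* (-1.94), *pdc102* (-1.46), *adh4* (-1.19), and *rki1* (-1.06) lie past the left line.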

How the data were processed

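Total RNA for 3 *htb1-K119R* and 3 WT libraries was enriched with oligo(dT) and sequenced on an Illumina HiSeq instrument. After removal of rRNA reads, the authors used HISAT2 for mapping to Ensembl release 45, and they deposited raw counts for each gene in each library. FPKM were computed by the authors via StringTie. The submitters' processing notes also name fastp, Bowtie2, RSEM, and DESeq2, and which tool counted is not given in the sources used here. The deposited columns of the authors' own comparison (fold change, P, and FDR), the table of their selected genes, and 12 further per-sample columns were not used. Genotypes and replicate numbers are those of the sample labels.

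Counts were fitted in edgeR 4.0.16 (R 4.3.3) on genotype alone, after filterByExpr and TMM, and the quasi-likelihood test, with Benjamini-Hochberg adjustment over 4969 genes. SEs are those implied by the F statistic. The alternatives were RLE normalization, library totals, no filter, DESeq2 1.42.0, limma 3.58.1 on log2(FPKM + 1) and log2(FPKM + 0.1) with a minimum mean FPKM of 1, log2(FPKM + 1) unfiltered, the replicate number as a block, and leaving out each library. Library totals without the 10 members were an addition chosen after seeing the data. The members, the list of linked genes, and the tests were chosen with earlier results of these data known. The genes named are the members, *htb1*, the 2 protein-coding neighbours on each side of *gpd3* and *tdh1*, the called genes of the linked list with *pgi1*, *pfk1*, and *eno102*, and the 5 genes nearest to *gpd3*. Other genes of the linked list that passed the adjusted P with TMM or library totals, and *pdc101*, *adh1*, *gpd1*, and *gpd2*, were named after their values were seen. When tested on simulated counts (200 of 4969 genes changed 4-fold), edgeR recovered 100% with 1 false call. The simulation gave all genes 1 common dispersion and had no library standing apart, so it does not measure false calls in these data.

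Positions and sequences come from the RefSeq annotation and genome ASM294v3, in which 5109 of 5184 gene IDs were found (98.6%). The table carries no coordinates, so that the assembly behind it could not be compared. Copies were searched with BLAST 2.17.0 (E value of at most 1e-05), and Python 3.11.15 with Biopython 1.88, numpy 2.4.6, pandas 2.3.3, and matplotlib 3.10.9 was used.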

Additional observations from a re-analysis of the deposited data

How the results depend on the processing

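The number of genes called higher in *htb1-K119R* was 234, and 223 to 291 when each library was left out. The number called lower was 181, and 165 to 214 when each library was left out, but 108 with library totals, 105 with library totals without the 10 members, 105 with limma on log2(FPKM + 0.1), and 66 with limma on log2(FPKM + 1), with and without its filter. Of the linked genes, 1 was called higher, but 2 with library totals, with library totals without the 10 members, and with limma on log2(FPKM + 0.1), and 0 to 2 when each library was left out. The 4 called lower became 2 with library totals without the 10 members and 1 with limma on log2(FPKM + 1), with and without its filter, and 3 to 4 when each library was left out. The cause of these shifts was not tested. The signs of *pgi1* and *pfk1* turned to 0.0618 and 0.0255 with library totals, to 0.0663 and 0.0297 with library totals without the 10 members, and to 0.0638 and 0.0242 in each limma fit on FPKM. *pyk1* turned to 0.05 with library totals and on FPKM. With single libraries left out, SPBC354.09c ranged between -0.0159 and 0.4075, and *rum1* between -0.0108 and 0.1344. Same-numbered libraries of the genotypes deviated together with r of -0.264, 0.421, and 0.287, so the numbers were not taken to pair them. With the replicate number as a block, 241 genes were called higher and 176 lower. The *gpd3* to *tdh1* difference within same-numbered pairs averaged 3.41 on the log2 scale, which equals the difference of means by construction and is no check. With 3 libraries a genotype, the TMM-scaled values of 7 of the 10 members overlapped between the genotypes.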
